A study of Mus musculus with 8 samples.

Results

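The p53 network examined here comprises 33 mouse genes: Trp53 itself, 3 genes whose products restrain it, and 29 genes that p53 is known to activate or that carry out its responses. They were chosen by gene symbol, with earlier results of these data known. All 33 were found among the 53465 genes of the count table and among the 14369 genes with enough reads to be tested. The RNA-seq samples are cultures of mesenchymal stem cells (MSCs), here a stromal population isolated from bone, with bone-, fat- and cartilage-forming potential. The cells came from wild-type male C57BL/6N mice aged 3 to 5 months and were grown in α-MEM with 5% CO2. The hypoxia group (n = 4) was kept at 2% O2 and the normoxia group (n = 4) at 21% O2, and no other treatment or allele separates the groups. The labels place the isolation of MSCs by flow cytometry on day 12, and the study describes a sorted CD45-/Ter-119-/Sca-1+/CD140a+ population that was divided between the oxygen levels for a week, so normoxia here is a shift of cells that had first grown at low oxygen.

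The p53 protein is a transcription factor that is held at a low level in unstressed cells by MDM2, a ubiquitin ligase that marks it for degradation, and MDM2 is itself made from a p53 target gene. Because control is largely at the level of the protein, the amount of Trp53 mRNA and the activity of p53 need not move together. Once p53 is stabilised, by DNA damage or oxidative stress for example, its targets can halt the cell cycle, trigger apoptosis, repair DNA or adjust metabolism, and in MSCs it is also known to restrain bone formation. High oxygen is a recognised source of oxidative damage in cultured mouse cells.

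Total counts ranged from 12898291 to 25132141 per sample, with hypoxia replicate 1 far above the other 7 samples. At these depths 3 counts, the smallest number taken as detection, correspond to 0.125 to 0.241 CPM, the library-size-scaled count (with TMM factors, which correct for differences in RNA composition), which covers counting error only. All 9 MSC markers were detected, and their summed level was 2872 to 3683 CPM in hypoxia and 2773 to 3248 CPM in normoxia. All 9 macrophage and blood markers were detected as well, although the sort was against CD45, at summed levels of 513 to 1022 CPM in hypoxia and 617 to 1158 CPM in normoxia, which overlap. With the replicate block 5 of these 9 were lower, among them Csf1r (-0.59) and Fcer1g (-0.56), 3 did not pass and Lyz2 was higher (0.56), the only 1 called without the block (limma-trend, adjusted p = 0.022), while Ptprc, the gene of CD45, was at 0.081 (adjusted p = 0.81). All 9 MSC markers passed with the block, 4 higher and 5 lower, where 3 passed without it, among them Cd44 at 0.72 (limma-trend, adjusted p = 0.013). Of all tested genes 46% passed with the block, 23.3% higher and 22.7% lower, and 34.6% passed without it. The erythroid markers Hba-a1, Hbb-bt and Hbb-bs were at 0 in every sample, and the 5 endothelial markers summed to at most 2.65 CPM, with Emcn at 0. In bulk RNA a change in the number of cells of a type cannot be told apart from a change in RNA per cell, and the part of these marker changes in the values below was not tested.

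To show where p53 could contact these genes, RefSeq promoters (GRCm38.p6, 250 bases before to 50 bases after a gene's start) were searched for the p53 half-site consensus, a palindromic run of 10 bases that reads the same on both strands. Promoter entries were matched for 25 of the 33 genes, giving 33 promoters. An exact half-site was found in 12 of these 33 promoters (36.4%), against 8.36% of 32851 promoters of all genes. An element of 2 half-sites at most 13 bases apart, with at most 3 mismatches in all and none at the C and G of either core (CNNG), was found in 15 of them (45.5%), against 15.6% of all promoters. Counted by gene, 13 of 25 (52%) had such an element, against 17.4% of all genes. Overlapping windows of Aen hold the same element, which counts in each of them. The 33 genes were listed for their known ties to p53, so these shares describe the list and test nothing. The promoters of 4 genes on which the results turn are printed below up to the gene's start, with the half-sites of the best match in capitals. Ddb2, Perp, Pmaip1, Rrm2b, Tnfrsf10b, Trp53inp1, Xpc and Zmat3 had no entry.

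The Mdm2 window holds 1 exact half-site and no full element, and the promoter through which p53 is known to drive Mdm2 lies in the first intron, outside the window. The Ccng1 element has 1 mismatch and adjoining half-sites at -195 to -176 from the start. For Cdkn1a the best match has 0 mismatches with 12 bases between the half-sites, at -73 to -42 from the more upstream of 2 starts, and an adjoining pair with 1 mismatch overlaps it at -51 to -32. The promoter of its other start, not printed here, holds no exact half-site and no full element. The Bbc3 element has 3 mismatches, at -97 to -78 of the most upstream of 3 starts. The windows are, in this order, chr10:117710759-117711008 (minus strand), chr11:40755287-40755536 (minus strand), chr17:29090729-29090978 (plus strand) and chr7:16309333-16309582 (plus strand), each written 5′ to 3′ along its gene.
Mdm2: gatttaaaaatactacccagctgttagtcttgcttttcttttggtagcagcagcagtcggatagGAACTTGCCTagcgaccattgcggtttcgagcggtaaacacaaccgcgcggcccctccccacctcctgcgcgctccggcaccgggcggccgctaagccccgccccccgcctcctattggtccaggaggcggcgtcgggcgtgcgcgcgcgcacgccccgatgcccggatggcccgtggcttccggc
Ccng1: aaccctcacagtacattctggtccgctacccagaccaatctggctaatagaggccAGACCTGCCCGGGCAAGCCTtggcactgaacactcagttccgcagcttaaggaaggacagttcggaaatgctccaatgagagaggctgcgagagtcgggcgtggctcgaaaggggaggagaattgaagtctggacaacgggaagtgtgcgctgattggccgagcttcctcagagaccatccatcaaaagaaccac
Cdkn1a: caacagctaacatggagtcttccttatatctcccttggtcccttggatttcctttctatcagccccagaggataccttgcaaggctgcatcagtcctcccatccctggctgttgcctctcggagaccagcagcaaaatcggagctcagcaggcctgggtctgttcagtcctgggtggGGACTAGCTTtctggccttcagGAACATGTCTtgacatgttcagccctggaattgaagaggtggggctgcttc
Bbc3: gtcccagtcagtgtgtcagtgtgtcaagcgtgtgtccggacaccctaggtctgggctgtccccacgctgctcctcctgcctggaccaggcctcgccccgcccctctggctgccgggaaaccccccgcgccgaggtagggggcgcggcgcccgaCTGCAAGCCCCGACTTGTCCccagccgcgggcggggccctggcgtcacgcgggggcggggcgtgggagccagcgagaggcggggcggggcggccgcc

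Elements of other members are shown to compare the spread of matches. That of Bax, with 2 mismatches and 1 base between its half-sites, lies at -201 to -181. That of Tigar has 3 mismatches at -213 to -194, and Trp53 carries an element with 3 mismatches in its own promoter at -75 to -56. A match describes letters only and was not measured as binding here. In the comparison described below, 5 of the 11 genes with an exact half-site in a window were higher in normoxia, 1 (Trp53) was lower and 5 did not pass the threshold. Of the 14 genes without one 8 were higher, 2 were lower and 4 did not pass. Of all tested genes 18% were higher and 16.5% lower. The 8 genes without an entry are in neither count, and sites outside the windows were not searched.
Cdkn1a adjoining pair: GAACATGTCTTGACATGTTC
Bax: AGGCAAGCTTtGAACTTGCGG
Tigar: GGTCTAGCTCTGGCAAGACT
Trp53: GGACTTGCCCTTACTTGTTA

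To ask whether the oxygen level moves the p53 network, the 8 samples were compared gene by gene with limma-trend on log2 CPM, with adjustment over all 14369 tested genes and a threshold of 0.05. Changes are normoxia minus hypoxia. Of the 33 genes 20 passed the threshold, 16 higher and 4 lower in normoxia, where 34.6% of all tested genes passed, 18% higher and 16.5% lower. The median log2 change was 0.26 over the 33 genes and 0.00 over all tested genes. The genes that were higher were spread over every role, and those that were lower were Trp53, Zmat3, Bbc3 and Sesn2, 1 in each. In all 22 other settings tried 15 of the 20 calls held, 13 of them higher and 2 lower (Trp53 and Zmat3), while those of Cdkn1a, Bbc3, Apaf1, Trp53inp1 and Sesn2 did not. The hypoxia and normoxia values were fully separate for 17 of the 33 genes, 13 higher and 4 lower in normoxia, where this held for 32.6% of all tested genes, 17.1% higher and 15.5% lower. Samples with the same number were taken to come from one divided population, which the labels do not state. With the replicate number as a block 22 of the 33 genes passed, 17 higher and 5 lower. Of all genes 46% passed with this block, 23.3% higher and 22.7% lower. Scaling by total counts only, without TMM factors, put the median of all genes at 0.089 and turned the split of all genes to 3611 higher and 1575 lower (36.1% called, 25.1% higher and 11% lower) from 2592 and 2378, and on that scale 17 of the 33 genes were higher and 3 lower.

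**Figure D1:**
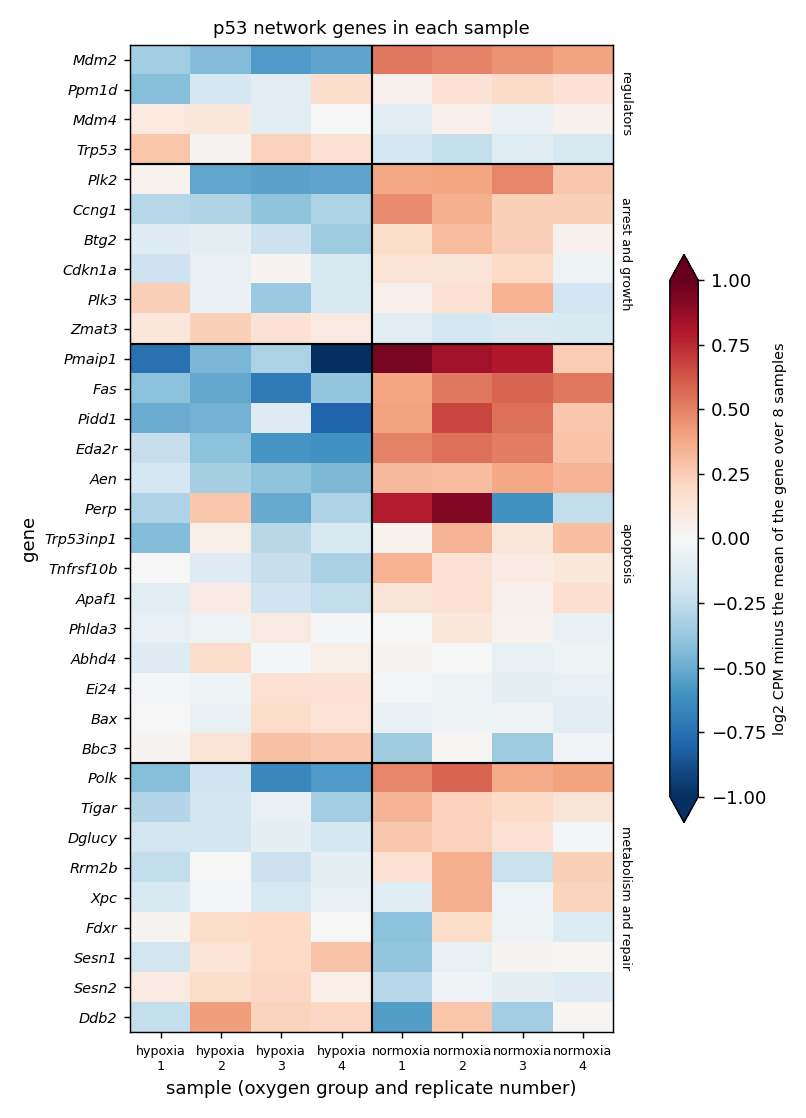
Heat map of the 33 genes (rows, grouped by role) in the 8 samples (columns), coloured by log2 CPM minus the gene's mean over the 8 samples. Mdm2, Ccng1, Fas, Eda2r, Aen and Polk were below their mean in all 4 hypoxia samples and above it in all 4 normoxia samples, and Trp53 and Zmat3 had the opposite order.

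**Figure D2:**
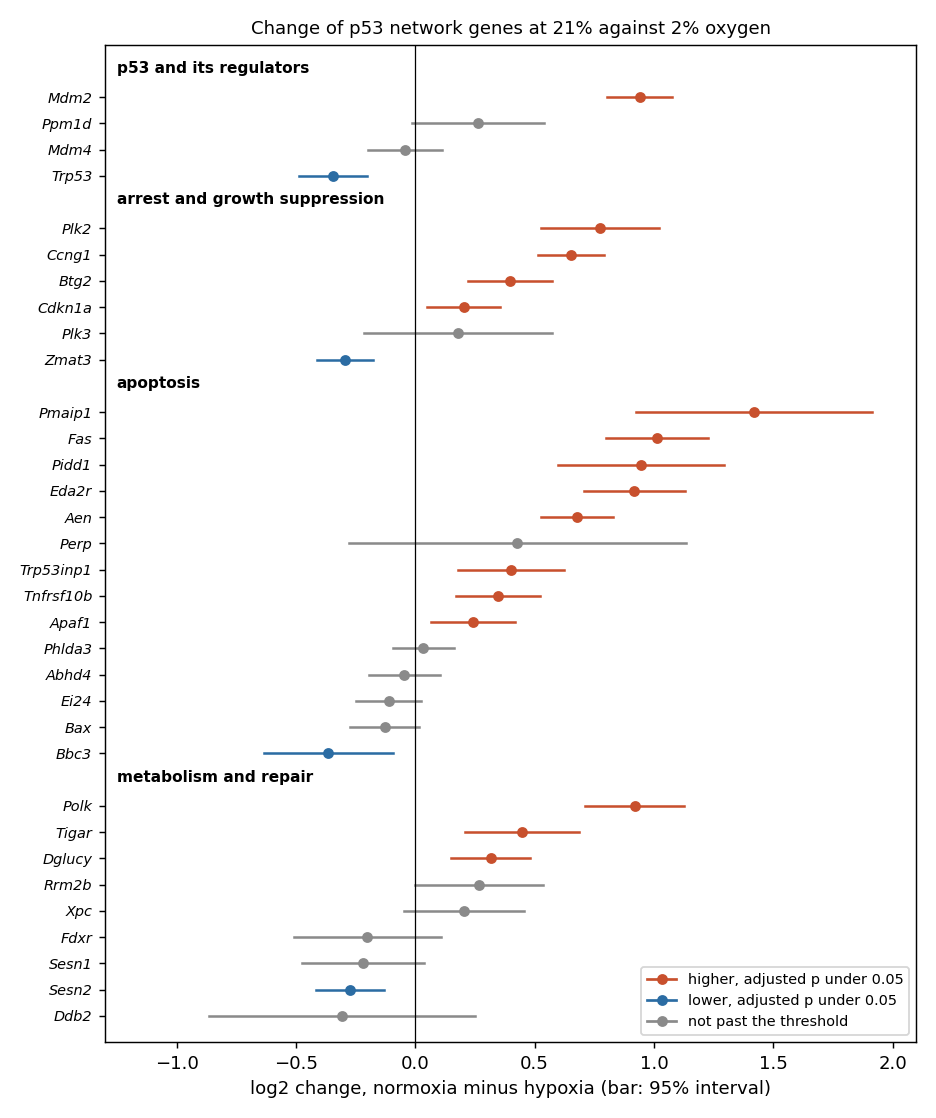
Log2 change from 2% to 21% O2 (points) with its 95% interval (bars) for each gene, grouped by role. Red and blue points passed an adjusted p of 0.05, and Pmaip1 at 1.42 was the highest and Bbc3 at -0.36 the lowest.

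Among p53 and its regulators, Mdm2 rose and Trp53 fell, while Mdm4 and Ppm1d did not pass. Trp53 (chr11:69580359-69591873) was at 104, 87.6, 101 and 95.6 CPM in hypoxia replicates 1 to 4 and at 76.3, 73.0, 79.2 and 77.1 CPM in normoxia replicates 1 to 4. Every hypoxia value lay above every normoxia value. Its log2 change was -0.34 ± 0.065 (SE), a normoxia level 0.788 times that of hypoxia (limma-trend, adjusted p = 0.0018). Mdm2 (chr10:117688875-117710758), the gene of the ligase, had 64.6, 61.1, 55.5 and 57.2 CPM in hypoxia and 119, 116, 113 and 109 CPM in normoxia. The groups were far apart, and each normoxia sample exceeded its same-numbered hypoxia sample by 0.88 to 1.02 on the log2 scale. With a log2 change of 0.94 ± 0.063 (SE), Mdm2 was 1.92 times higher in normoxia (limma-trend, adjusted p = 9.8e-06).

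The ratio of Mdm2 to Trp53 in CPM per kilobase of the longest transcript, chosen after the values were seen, was 0.645, 0.726, 0.571 and 0.623 in hypoxia and 1.63, 1.66, 1.48 and 1.48 in normoxia. Mdm2 mRNA was thus the less abundant of the pair in every hypoxia sample and the more abundant in every normoxia sample. With the length of all merged exons in place of the longest transcript, the group means of Mdm2 and Trp53 were 11.7 and 24.0 CPM per kilobase in hypoxia and 22.5 and 18.9 in normoxia, so the order of the pair was the same. Mdm4, the gene of an MDM2 relative that binds p53 without degrading it, changed by -0.042 (adjusted p = 0.69 with limma-trend, 95% interval -0.20 to 0.11), and Ppm1d, the gene of the WIP1 phosphatase that switches the pathway off, changed by 0.26 (adjusted p = 0.13, interval -0.01 to 0.54), with 0.37 without hypoxia replicate 4 (limma-trend, adjusted p = 0.039) and 0.17 without hypoxia replicate 1 (adjusted p = 0.30).

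**Figure D3:**
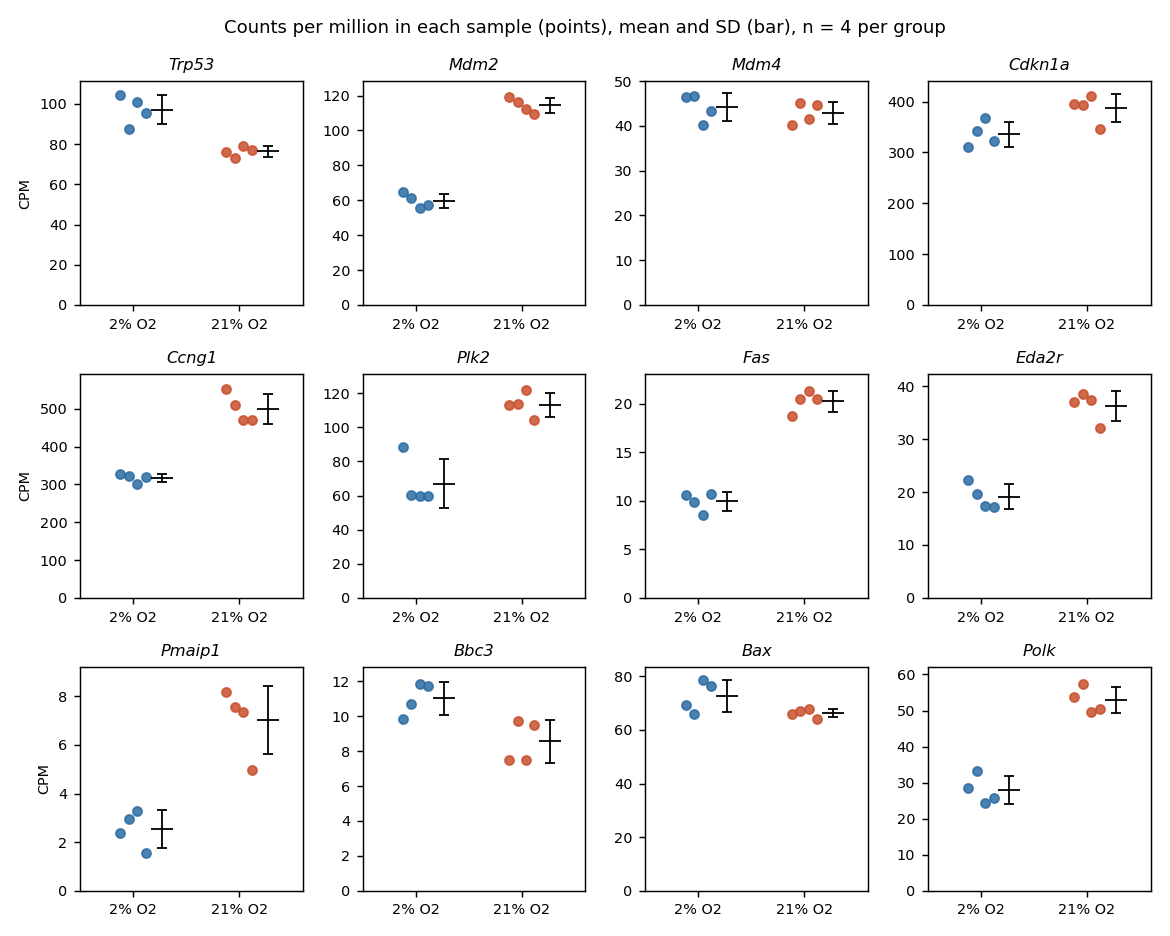
CPM in each sample (points) for 12 of the genes at 2% and 21% O2, with the mean and SD (bars, n = 4 per group), on axes that start at 0. Mdm2 was at 55.5 to 64.6 CPM in hypoxia and at 109 to 119 CPM in normoxia, whereas the groups overlap for Mdm4, Cdkn1a and Bax.

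In the arrest and growth suppression group, 4 of 6 genes rose (Plk2, Ccng1, Btg2 and Cdkn1a), Zmat3 fell and Plk3 did not pass, with a median log2 change of 0.30. Cdkn1a (chr17:29090976-29100727) encodes p21, the inhibitor of cyclin-dependent kinases through which p53 arrests the cell cycle. It was at 311, 342, 367 and 323 CPM in hypoxia and at 395, 394, 411 and 347 CPM in normoxia. Hypoxia replicate 3 lay above normoxia replicate 4, so the groups overlap, but within each of the 4 numbered pairs normoxia was higher. Its log2 change was 0.20 ± 0.070 (SE), with an adjusted p of 0.041 without and 0.0018 with the replicate block (limma-trend). Leaving out any of hypoxia replicates 1, 2 and 4 or normoxia replicates 1, 2 and 3 ended the call without the block, with log2 changes between 0.17 and 0.21 and adjusted p-values between 0.052 and 0.14 (limma-trend). The call was lost in 9 of the 22 other settings in all, the others being DESeq2 size factors (adjusted p = 0.051), upper-quartile factors (0.073) and no filter (0.070) under limma-trend, whereas with GC content and length removed the change was 0.33 (adjusted p = 0.0028).

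Ccng1 (chr11:40748552-40755311), whose product cyclin G1 brings a phosphatase to MDM2, had 326, 322, 301 and 319 CPM in hypoxia and 551, 509, 469 and 469 CPM in normoxia, with no overlap. Its change of 0.65 ± 0.064 (SE) had an adjusted p of 6.2e-05 in limma-trend. Plk2 (chr13:110395046-110400844), a polo-like kinase, stood at 88.3, 60.2, 59.6 and 59.9 CPM in hypoxia and at 113, 114, 122 and 104 CPM in normoxia. Hypoxia replicate 1, the deepest library, was the nearest to normoxia, and the change was 0.77 ± 0.11 (SE) with all samples (limma-trend, adjusted p = 0.00044) and 0.91 without it. Btg2 (chr1:134075170-134079120), an antiproliferative regulator of mRNA decay, was measured at 32.7, 33.3, 30.7 and 27.9 CPM in hypoxia and at 40.6, 44.6, 42.2 and 36.9 CPM in normoxia. These values do not overlap, and the change was 0.40 ± 0.082 (SE) with a limma-trend adjusted p of 0.0029.

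Zmat3 (chr3:32334792-32366014), a p53-induced RNA-binding zinc finger protein, moved the other way, from 119, 129, 121 and 117 CPM in hypoxia to 101, 96.9, 99.2 and 98.3 CPM in normoxia. The groups did not overlap and the log2 change was -0.29 ± 0.053 (SE) (limma-trend, adjusted p = 0.0014). Plk3, a further polo-like kinase, had only 32 to 94 counts per sample and changed by 0.18 (adjusted p = 0.48 in limma-trend, 95% interval -0.21 to 0.57).

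The apoptosis group had 8 of 14 genes higher, 1 lower and 5 not past the threshold, with a median log2 change of 0.37. The 3 genes of the TNF receptor superfamily, which carry death or stress signals from outside the cell, all rose. Fas (chr19:34290666-34327772) was at 10.6, 9.87, 8.59 and 10.7 CPM in hypoxia and at 18.7, 20.5, 21.3 and 20.5 CPM in normoxia. The transcript of this death receptor was 1.01 ± 0.098 (SE) higher on the log2 scale, with no overlap (limma-trend, adjusted p = 6.0e-05). Eda2r (chrX:97333840-97377216), the receptor for the A2 form of ectodysplasin, had 22.4, 19.7, 17.4 and 17.2 CPM in hypoxia and 37.1, 38.5, 37.5 and 32.0 CPM in normoxia. Its groups were likewise separate, with a change of 0.92 ± 0.098 (SE) and an adjusted p of 9.9e-05 (limma-trend). Tnfrsf10b (chr14:69767472-69784411), the mouse TRAIL receptor, went from 75.7, 69.4, 64.9 and 60.6 CPM in hypoxia to 96.6, 84.6, 80.4 and 82.4 CPM in normoxia. The smaller change of 0.35 ± 0.081 (SE) also came without overlap (limma-trend, adjusted p = 0.0060).

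The BCL2-family genes, which act on the mitochondrial membrane, did not move together. Pmaip1 (chr18:66458533-66465565), which encodes the BH3-only protein NOXA, was at 2.38, 2.97, 3.28 and 1.54 CPM in hypoxia and at 8.17, 7.56, 7.36 and 4.97 CPM in normoxia. It had the highest log2 change of the 33 genes, 1.42 ± 0.23 (SE), on 20 to 110 counts per sample (limma-trend, adjusted p = 0.00070). Bbc3 (chr7:16308393-16318205), which encodes the BH3-only protein PUMA, was by contrast at 9.82, 10.7, 11.9 and 11.7 CPM in hypoxia and at 7.50, 9.72, 7.51 and 9.50 CPM in normoxia. The values lay close without overlap, and the change was -0.36 ± 0.12 (SE) with an adjusted p of 0.039 (limma-trend). Without any of hypoxia replicates 2, 3 and 4 or normoxia replicates 1 and 3 the call was lost, at changes between -0.38 and -0.31 and adjusted p-values between 0.056 and 0.10 (limma-trend). It was lost in 10 of the 22 other settings in all, among them the removal of GC content and transcript length, after which the change was -0.088 (limma-trend, adjusted p = 0.58). Bax (chr7:45461697-45466898), the pore-forming effector, had 69.3, 66.0, 78.8 and 76.2 CPM in hypoxia and 66.0, 67.1, 67.8 and 64.2 CPM in normoxia. It did not pass at -0.13 (adjusted p = 0.16), and with GC content and length removed its change was 0.18 (adjusted p = 0.023), both in limma-trend.

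Per kilobase of the longest transcript, the ratio of Pmaip1 to Bbc3, also chosen after its values were seen, was 0.161, 0.185, 0.184 and 0.0875 in hypoxia and 0.724, 0.517, 0.652 and 0.348 in normoxia. Bbc3 was thus the more abundant of the 2 transcripts in all 8 samples, by a smaller margin in every normoxia sample.

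Further members act inside the cell. Pidd1 (chr7:141438113-141444025), the scaffold of the PIDDosome, was found at 3.93, 4.01, 5.15 and 3.16 CPM in hypoxia and at 7.50, 9.08, 8.37 and 6.86 CPM in normoxia. Its groups did not overlap, with a change of 0.95 ± 0.16 (SE) and a limma-trend adjusted p of 0.00095. Aen (chr7:78895854-78911209), an apoptosis-enhancing nuclease, had 46.6, 41.6, 39.7 and 38.5 CPM in hypoxia and 65.9, 65.2, 68.7 and 66.5 CPM in normoxia. It too was without overlap, and its change was 0.68 ± 0.069 (SE) (limma-trend, adjusted p = 7.4e-05). Trp53inp1 (chr4:11156431-11174379), a stress-induced nuclear protein that promotes p53 activity, was at 70.3, 99.4, 78.6 and 85.8 CPM in hypoxia and at 97.8, 121, 103 and 118 CPM in normoxia. Hypoxia replicate 2 exceeded normoxia replicate 1, yet normoxia was higher in each numbered pair, and the change was 0.40 ± 0.10 (SE) with an adjusted p of 0.0097 (limma-trend). With GC content and length removed it was 0.16 (adjusted p = 0.21, and 0.0084 with the replicate block). Apaf1 (chr10:90989311-91082770), the core of the apoptosome, had 31.6, 36.3, 29.7 and 28.9 CPM in hypoxia and 37.4, 38.0, 35.2 and 38.5 CPM in normoxia. One hypoxia value lay inside the normoxia range, and the change of 0.24 ± 0.080 (SE), with an adjusted p of 0.035 in limma-trend, was lost in 9 of the 22 other settings. These include leaving out any of hypoxia replicates 3 and 4 or normoxia replicates 1, 2 and 4, with changes between 0.20 and 0.23 and adjusted p-values between 0.080 and 0.10 (limma-trend).

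The other 4 apoptosis genes did not pass in limma-trend. Phlda3, which encodes an inhibitor of AKT and was among the most abundant of the 33 transcripts, changed by 0.033 (adjusted p = 0.70, interval -0.09 to 0.16), and by 0.31 with GC content and length removed (adjusted p = 0.00086). Perp, which encodes a tetraspan membrane protein, ranged from 1.66 to 5.19 CPM within normoxia alone and changed by 0.43 (adjusted p = 0.34, interval -0.28 to 1.13). Ei24, an endoplasmic reticulum membrane protein gene, changed by -0.11 (adjusted p = 0.20), and Abhd4, a lipase gene, changed by -0.046 (adjusted p = 0.65).

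Metabolism and repair targets had the smallest share of calls among the target groups, with 3 of 9 higher, 1 lower and 5 not past the threshold, at a median log2 change of 0.20. Polk (chr13:96480690-96542579), which encodes the translesion DNA polymerase kappa, stood at 28.5, 33.3, 24.4 and 25.7 CPM in hypoxia and at 53.8, 57.5, 49.6 and 50.6 CPM in normoxia. The groups were well apart, with a change of 0.92 ± 0.095 (SE) (limma-trend, adjusted p = 8.3e-05). Tigar (chr6:127085116-127109557), a phosphatase that lowers glycolytic flux, had 6.98, 7.54, 8.12 and 6.70 CPM in hypoxia and 10.9, 10.1, 9.82 and 9.42 CPM in normoxia. There was no overlap, and the change was 0.45 ± 0.11 (SE) with an adjusted p of 0.0079 in limma-trend. Dglucy (chr12:100779057-100896981), the mitochondrial D-glutamate cyclase, was at 31.6, 31.6, 33.7 and 31.7 CPM in hypoxia and at 43.4, 42.1, 39.7 and 35.4 CPM in normoxia. Its 4 hypoxia values were nearly equal and all below normoxia, for a change of 0.32 ± 0.076 (SE) (limma-trend, adjusted p = 0.0069).

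The sestrins, stress-induced proteins that restrain mTORC1, were both lower in normoxia in each of the 4 numbered pairs. Sesn2 (chr4:132492032-132510501) was at 108, 115, 117 and 107 CPM in hypoxia and at 83.1, 98.8, 95.3 and 92.6 CPM in normoxia. The groups did not overlap, and the change was -0.27 ± 0.065 (SE) with an adjusted p of 0.0068 (limma-trend). With GC content and length removed it was -0.11 (adjusted p = 0.16, and 0.078 with the replicate block). Sesn1 had overlapping groups and a change of -0.22, with an adjusted p of 0.18 without and 0.013 with the replicate block (limma-trend), and without hypoxia replicate 1 it passed at -0.31 (adjusted p = 0.030).

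Of the repair genes Polk alone passed with all samples, TMM factors and no block. Rrm2b, the p53-inducible subunit of ribonucleotide reductase, changed by 0.27 (adjusted p of 0.11 in limma-trend, or 0.022 once blocked by replicate number). With GC content and length removed its change was 0.028 (adjusted p = 0.88 in limma-trend, or 0.83 when blocked), and it passed with total counts only (0.35, adjusted p = 0.042) and without normoxia replicate 3 (0.38, adjusted p = 0.020). Xpc, which encodes a sensor of damaged DNA in nucleotide excision repair, changed by 0.20 (limma-trend, adjusted p = 0.19) and was higher in each of the 4 numbered pairs. With GC content and length removed and the replicate block, Xpc passed at 0.24 (limma-trend, adjusted p = 0.030). Ddb2, the partner of Xpc in damage recognition, had only 8 to 19 counts per sample and was lower in each of the 4 numbered pairs. Its change of -0.31 had an interval from -0.86 to 0.25, so a moderate change in either direction was not detectable at this depth (limma-trend, adjusted p = 0.39). Fdxr, the mitochondrial ferredoxin reductase gene, changed by -0.20 (limma-trend, adjusted p = 0.30).

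The target roles were then set side by side. The share higher in normoxia was 66.7% of arrest, 57.1% of apoptosis and 33.3% of metabolism and repair genes, against 18% of all genes. Within the 4 numbered pairs the median difference of arrest genes was 0.33, 0.32, 0.55 and 0.25, that of apoptosis genes was 0.41, 0.28, 0.28 and 0.43, and that of metabolism and repair genes was 0.027, 0.36, -0.011 and 0.16. Arrest and apoptosis genes were above 0 in all 4 pairs, and metabolism and repair genes in 3 of 4. The ranges of arrest and apoptosis overlap, and the counts and medians of the roles are a description of these genes, with no test of the roles against each other.

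**Figure D4:**
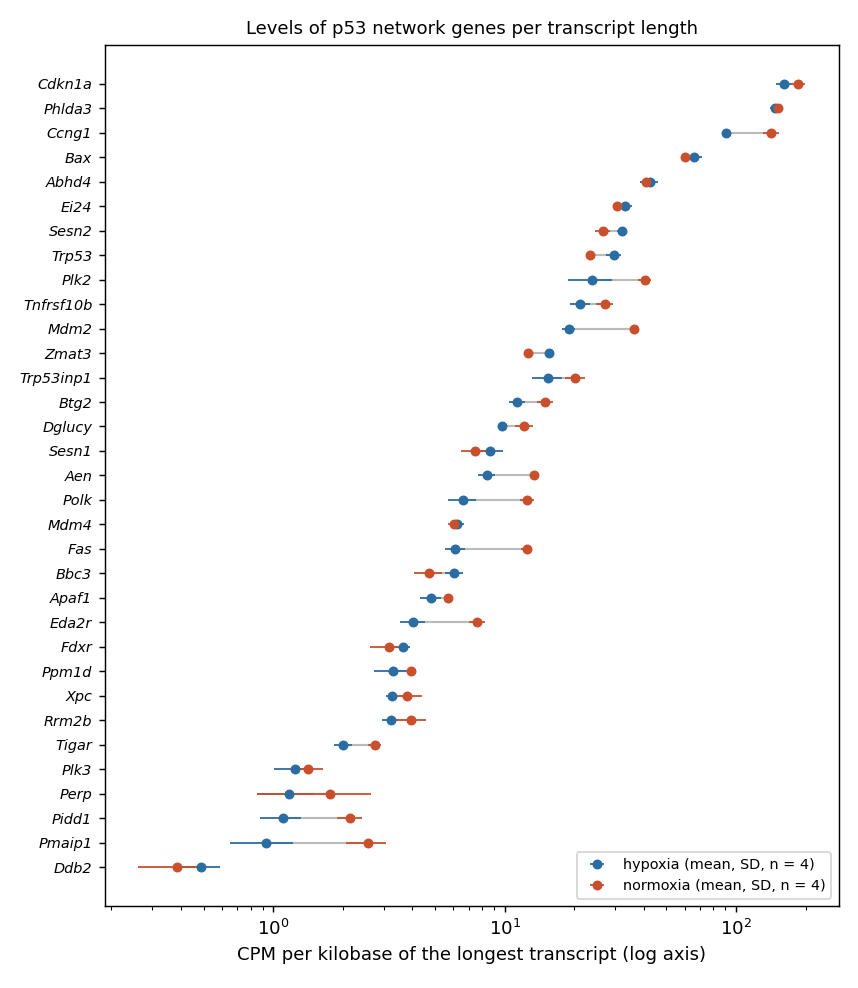
Mean level of each gene in CPM per kilobase of its longest transcript (log axis) in hypoxia and normoxia, with SD (bars, n = 4), ordered by the hypoxia level. Levels run from 0.49 for Ddb2 to 161 for Cdkn1a in hypoxia, and Mdm2 passes Trp53 between the groups.

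Levels between genes were compared per kilobase of the longest transcript, on which scale the median over the 33 genes in normoxia was 12.5 CPM per kilobase. Cdkn1a led with 161 ± 11.8 in hypoxia and 186 ± 13.3 in normoxia (SD, n = 4). Phlda3 followed with 148 ± 7.61 and 151 ± 7.58, then Ccng1 with 90.3 ± 3.21 and 142 ± 11.2, and Bax with 66.0 ± 5.37 and 60.3 ± 1.42. The sample values of Cdkn1a and Phlda3 overlapped in hypoxia, as did those of Phlda3 and Ccng1 in normoxia. At the low end Pmaip1 was at 0.93 ± 0.28 and 2.57 ± 0.51, and Ddb2 was last in both groups. Mdm2 moved from rank 11 to rank 7 of the 33 and Trp53 from rank 8 to rank 11. The 6 genes with the highest log2 changes (Pmaip1, Fas, Pidd1, Mdm2, Eda2r and Polk) ranked between 11 and 32 by their level in hypoxia. Per merged exon length Phlda3 led in hypoxia and Ccng1 in normoxia, so the order among the first 3 depends on the transcript assumed.

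Changes between these groups followed the GC content of transcripts over all genes (Spearman's rho -0.39 between log2 change and GC content, a description across 14353 genes that share the 8 libraries). The 33 genes range from 38.8% GC for Trp53inp1 to 65.2% for Bbc3. Of the 17 at or below the median GC content of 49.7%, 11 were higher and 1 was lower, where 27.5% of all genes in that range were higher and 7.91% lower. Of the 16 above it, 5 were higher and 3 lower, where 8.61% of all genes were higher and 25.2% lower. With GC content and length removed from each sample, 19 of the 33 passed, 16 higher and 3 lower, with a median of 0.31, where 29.5% of all genes passed, 15.1% higher and 14.4% lower. Under this removal the median of apoptosis genes was 0.31 and that of arrest genes 0.38, whereas that of metabolism and repair genes was 0.028. The calls of Bbc3, Apaf1, Trp53inp1 and Sesn2 were lost and those of Mdm4 (lower, -0.22), Bax and Phlda3 (both higher) were gained. A real response that happens to track these properties is taken away by the removal as well, and whether the GC trend is technical was not tested.

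**Figure D5:**
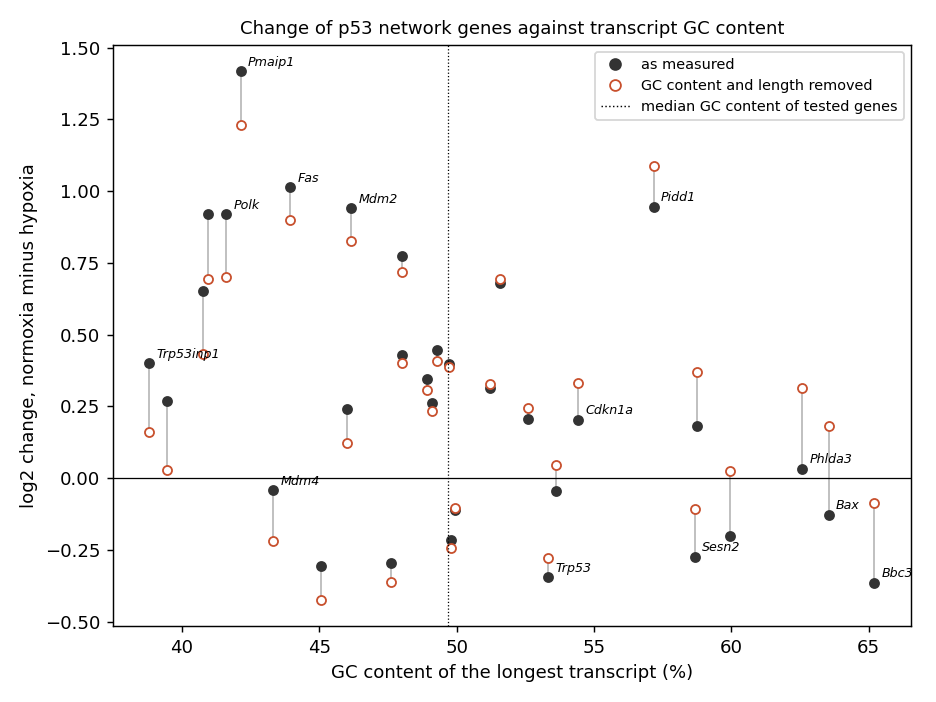
Log2 change (y axis) against GC content of the longest transcript in percent (x axis) for the 33 genes, as measured (filled points) and with GC content and length removed (open points), joined by lines. Genes of low GC content move down and genes of high GC content move up, and Bax passes from -0.13 to 0.18.

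Genes around the network were counted from 5 lists. Of 23 kinases and other modifiers of p53 5 were higher and 4 lower (39.1% against 34.6% of all genes), led by the p53-binding protein gene Trp53bp1 (0.29, adjusted p = 0.0080) and the methyltransferase gene Setd7 (0.28, adjusted p = 0.0087). The largest falls in that list were Cdkn2a (-0.49, adjusted p = 0.0018), the locus of the ARF protein that inhibits MDM2, and the acetyltransferase gene Crebbp (-0.41, adjusted p = 0.0020). With GC content and length removed and the replicate block, Cdkn2a was at -0.19 (adjusted p = 0.0046) and Crebbp at -0.35 (adjusted p = 2.1e-05). Of the p53 family Trp63 did not pass (-0.20), and Trp73 had too few counts to be tested. With GC content and length removed and the replicate block, Trp63 passed at -0.37 (adjusted p = 0.011). All adjusted p-values in this paragraph are from limma-trend.

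Among 32 tested genes of a list of other p53 targets, 7 were higher, 5 were lower and 20 did not pass. The share called was 37.5%, against 34.6% of all genes. The cytokine gene Lif rose by 1.16 (adjusted p = 0.0038). Trp53i11 (-0.63, adjusted p = 0.013) and Trp53i13 (-0.43, adjusted p = 0.0082) fell, in limma-trend as before. With GC content and length removed and the replicate block, Trp53i11 was at -0.49 (limma-trend, adjusted p = 0.019) and Trp53i13 at -0.14 (adjusted p = 0.14). The share higher was 21.9% in this list and 48.5% in the 33 genes, against 18% of all genes. Both lists were chosen with earlier results of these data known, so this contrast is a description only. The share lower in this list was 15.6%, against 16.5% of all genes. Spata18 had too few counts to be tested.

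Of 20 cell cycle genes known to fall when p53 and p21 are active, Rrm2 was higher (0.63, limma-trend adjusted p = 0.040), Foxm1 was lower (-0.46, limma-trend adjusted p = 0.0499) and 18 did not pass, with a median of -0.025. The share called was 10%, against 34.6% of all genes. With the replicate block 4 were higher and 2 lower, where 46% of all genes passed. Of 15 tested BCL2-family and caspase genes that work with BAX, PUMA and NOXA, 2 rose (13.3%, against 18% of all genes) and 7 fell (46.7%, against 16.5%), and 4 were lower with GC content and length removed. Bcl2l2 (0.52, adjusted p = 0.0012) and Mcl1 (0.30, adjusted p = 0.0014), which protect cells from death, were the 2 that rose in limma-trend. The largest falls were in the BH3-only genes Bmf (-0.63, adjusted p = 0.048) and Bcl2l11 (-0.59, adjusted p = 0.0060) (limma-trend). Among the BH3-only genes of all lists Pmaip1 and Bid (0.31, adjusted p = 0.032) thus rose in limma-trend. Bbc3, Bmf, Bcl2l11 and Bad (-0.22, adjusted p = 0.026) fell in the same test, and Bid and Bad were named after their values were seen. With GC content and length removed and the replicate block, Bad was at -0.018 (limma-trend, adjusted p = 0.86) and Bbc3 at -0.088 (adjusted p = 0.54). Pmaip1, Bid, Bmf and Bcl2l11 still passed there in the same direction. Bcl2a1a, Bik and Hrk had too few counts to be tested.

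Some members share exon bases with other genes, so that reads may have been assigned to either. For genes on opposite strands this holds where strand was not used, a setting that is not stated. Bax shares 192 bases with Gm45808 on the same strand. Transcripts on the opposite strand share 273 bases with Cdkn1a, 652 with Ddb2, 374 with Dglucy, 324 with Ei24, 84 with Plk3, 734 with Rrm2b and 122 with Tigar. The values of these genes are uncertain to that extent.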

How the data were processed

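Total RNA of 4 hypoxia and 4 normoxia MSC samples was sequenced as single-end reads. The authors aligned the reads to mm10 with STAR inside the zUMIs pipeline, assigned them to Ensembl genes with featureCounts and deposited raw counts per gene for 53465 Ensembl identifiers, not normalized. Whether strand, introns or reads with several positions were counted is not stated, and 53360 identifiers were given a symbol and a position through the GENCODE M21 annotation of the same build (GRCm38).

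As in the study, low genes were removed with filterByExpr (edgeR 4.0.16, minimum count of 5), which left 14369 genes with 99.9% of the counts. Also as in the study, the remaining genes were compared with limma-trend (limma 3.58.1, R 4.3.3) at a threshold of 0.05 on the adjusted p. The fit used log2 CPM with TMM factors, a prior count of 3 and Benjamini-Hochberg adjustment over all tested genes, settings that the study does not state. For weakly counted genes the prior count shrinks the change. Since the study used limma-trend, the quasi-likelihood test of edgeR was an alternative, as were DESeq2 1.42.0, limma-voom, other scalings, filters and prior counts, removal of GC content and length per sample (natural splines with 5 degrees of freedom, longest GENCODE transcript, 14353 genes) and leaving out each sample. The fits were tested on simulated counts.

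Replicate numbers occur in both groups. Across genes, the deviations from the group means correlated between samples of equal number ( 0.47, 0.28, 0.25 and 0.17 for numbers 1 to 4), and the study describes one sorted population divided between the oxygen levels, so the numbers were taken to pair the samples. The main fit has no block, since the study does not mention one, and a fit with the replicate block stands beside it. The study calls the 4 samples of a group biologically independent, and p-values measure the spread between these samples.

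The 33 genes and the other lists were chosen with earlier results of these data known. Values in every sample are given for Trp53, Mdm2, Cdkn1a and every member past the threshold, the other members are named with their change, and of other lists the 2 largest rises and falls past the threshold are named, except for an item that is not reported here. For symbols with more than 1 identifier, the one with most counts was taken. Total counts were 12898291 to 25132141 per sample. Sequences are RefSeq promoters of the GRCm38.p6 build.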

Additional observations from a re-analysis of the deposited data

Results flagged for a closer look

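In 68 sets of 4 values (the log2 CPM of each member and the total counts, per group) the sample farthest from the rest was compared with Dixon's critical value at 95%, and 3 sets exceeded it, where chance gives about 1 in 20, or 3.4 sets.

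Plk2 in hypoxia replicate 1 stood at 6.47 log2 CPM, far above the 5.90 to 5.92 of the other 3 hypoxia samples, and the change without this sample was 0.91 instead of 0.77. Dglucy in hypoxia replicate 3 was at 5.08 log2 CPM against 4.99 in the other 3 hypoxia samples, a gap that looks wide because those 3 values are nearly equal. Hypoxia replicate 1 had a total of 25132141 counts against 12929564 to 13219647 in the other hypoxia samples. Without that sample 20 of the 33 genes still passed, 15 higher and 5 lower in normoxia. With all samples 34.6% of all tested genes passed, 18% higher and 16.5% lower.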

How the results depend on the processing

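The number of the 33 genes past the threshold ranged from 17 to 22 over the alternatives, and over the fits that leave out 1 sample from 17 to 20. The median log2 change of the members was 0.35 with total counts only and ranged from 0.18 (without normoxia replicate 2) to 0.31 (without hypoxia replicate 2) over the fits that leave out 1 sample. Over all tested genes 2925 passed at an adjusted p of 0.01, at which 17 members did. The median level per kilobase, 12.5 with the longest transcript, was 8.73 with merged exons. With the replicate block 22 members passed, Sesn1 and Rrm2b being gained. With the block and without the samples numbered 1 of both groups, an alternative chosen after seeing the data, 21 passed. In that fit 42.2% of all genes passed, 21.1% higher and 21.1% lower.

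Of 725 member values under alternatives 670 kept their direction and side of the threshold, 31 (5 members) lost the call, 13 (6 members) gained one and 11 (5 members) changed sign. Those signs turned for Mdm4 (0.046 with total counts only, 0.0053 with the block and without the samples numbered 1), Abhd4 (0.042 with total counts only, 0.047 with GC content and length removed, with or without the replicate block, and -0.097 to 0.0066 over the fits that leave out 1 sample, the latter without hypoxia replicate 2), Bax (0.18) and Fdxr (0.026) with GC content and length removed, with or without the block, and Phlda3 (-0.0083 to 0.067 over the fits that leave out 1 sample, the former without normoxia replicate 2). The cause was not tested. Ddb2 did not pass the minimum count of 20, so it has no value there. Depth limits Ddb2, Plk3, Perp, Pmaip1 and Pidd1, at under 130 counts per sample, most.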
